A study of Mus musculus with 12 samples.

Results

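The 32 genes described here encode the folding and disposal machinery of the endoplasmic reticulum (ER) and the sensors that control it. They were chosen by name, as rows of the count tables whose symbol is on a list of ER chaperones, disulfide isomerases, translocon subunits, ER-associated degradation (ERAD) factors and unfolded protein sensors. All 32 were among the 23574 entries of the tables, and all 32 had enough counts to be among the 14275 entries tested. By role, 10 are chaperones or their partners, 2 are lectin chaperones, 4 are protein disulfide isomerases, 3 belong to the translocon, 9 act in ERAD and 4 are sensors or their transcription factor.

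RNA came from livers of wild-type C57BL/6 mice, and every group had received concanavalin A (Con A), a bean lectin used to cause T cell-driven hepatitis. The 4 groups are Con A 6h, Con A 12h, Con A+MSC 6h and Con A+MSC 12h, with 3 libraries each, where MSC are mesenchymal stem cells given in addition and the time counts from Con A. There are no mice without Con A, so effects of time after Con A and of the hour of the day cannot be told apart. The labels do not state the age of the mice, the source of the MSC, or whether replicates were separate animals, so p-values measure the spread between these libraries, which may be technical.

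Secreted and membrane proteins enter the ER through the Sec61 translocon and are folded there by BiP (Hspa5), GRP94 (Hsp90b1), the lectins calnexin and calreticulin, and disulfide isomerases. Proteins that fail to fold are passed by Edem and Sel1l to the Derlin channel proteins and the ubiquitin ligase Hrd1 (Syvn1) for destruction in the cytosol, which is ERAD. When unfolded protein accumulates, the sensors Ire1 (Ern1) and Atf6 are activated. Ire1 splices Xbp1 mRNA, and the resulting XBP1 protein and cleaved ATF6 raise transcription of chaperone and ERAD genes through short promoter elements. Hepatocytes secrete most plasma proteins and carry a large ER.

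Those promoter elements can be read in the genes themselves. RefSeq promoter windows, which run from 250 bases before to 50 bases after a gene's start on GRCm38.p6, were at hand for 26 of the 32 genes. Hyou1, Hspa13, Manf, Sec61a1, Derl1 and Atf6 had none. Both strands were searched for the ER stress element ERSE, which is CCAAT, 9 bases of any kind, then CCACG. They were also searched for ERSE-II (ATTGG, 1 base, CCACG) and for TGACGTG, the core of the unfolded protein response element (UPRE). Only exact matches inside the window were counted, so a gene without a match may still hold a near match, as Pdia3 does for ERSE. The 250 bases before the Hspa5 start (chr2:34771840-34772089, plus strand) hold both an ERSE and a UPRE core, which do not overlap. The fixed letters of each are in capitals, and the window is shown because Hspa5 is the standard reporter gene of the pathway.
Hspa5: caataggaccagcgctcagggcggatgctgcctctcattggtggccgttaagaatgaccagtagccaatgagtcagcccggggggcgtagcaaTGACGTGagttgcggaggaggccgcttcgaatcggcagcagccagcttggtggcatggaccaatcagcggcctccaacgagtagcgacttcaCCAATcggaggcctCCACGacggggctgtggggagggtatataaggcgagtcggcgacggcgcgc

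ERSE matches were present in 9 of the 26 windows (34.6%), against 37 of 27025 genes with a window (0.137%). ERSE-II was in 2 of the 26 (7.69%) and in 12 of the 27025 (0.0444%). The shorter UPRE core was in 1 of the 26 (3.85%) and in 601 of the 27025 (2.22%), so its share among these genes was close to that among all genes. The 11 genes with an ERSE or ERSE-II were Hspa5, Hsp90b1, Dnajb11, Dnajc3, Creld2, Calr, Canx, Pdia6, Syvn1, Herpud1 and Derl3. Hsp90b1 had a pair of them. A match is a run of letters and not evidence of binding. ERSE and ERSE-II are known as elements of chaperone and ERAD genes, so their larger share among such genes is not an independent result. The elements below, each with 9 bases on either side, are from 4 genes that rose from 6 h to 12 h (Calr, Creld2, Derl3, Syvn1), 1 that did not (Canx), and the genes with ERSE-II. Each is written 5′ to 3′ on the strand that carries the match, with the fixed letters in capitals.
Calr (ERSE, chr8:84847066-84847102, plus strand): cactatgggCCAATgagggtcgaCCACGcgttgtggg
Creld2 (ERSE, chr15:88819511-88819547, minus strand): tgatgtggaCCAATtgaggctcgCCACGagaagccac
Derl3 (ERSE, chr10:75893233-75893269, minus strand): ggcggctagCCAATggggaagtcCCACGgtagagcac
Syvn1 (ERSE, chr19:6046523-6046559, plus strand): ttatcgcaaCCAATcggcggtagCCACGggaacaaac
Canx (ERSE, chr11:50325791-50325827, minus strand): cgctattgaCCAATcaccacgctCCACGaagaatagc
Herpud1 (ERSE-II, chr8:94386368-94386396, plus strand): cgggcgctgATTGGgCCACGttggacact
Dnajb11 (ERSE-II, chr16:22857843-22857871, plus strand): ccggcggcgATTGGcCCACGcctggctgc

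The Syvn1 element lay nearest to its start among the ERSE matches, at -44 to -26, and that of Hspa5 was at -65 to -47. The more distant Hsp90b1 element was at -212 to -194. The Dnajb11 element lay after the start, at 8 to 18.

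**Figure D1:**
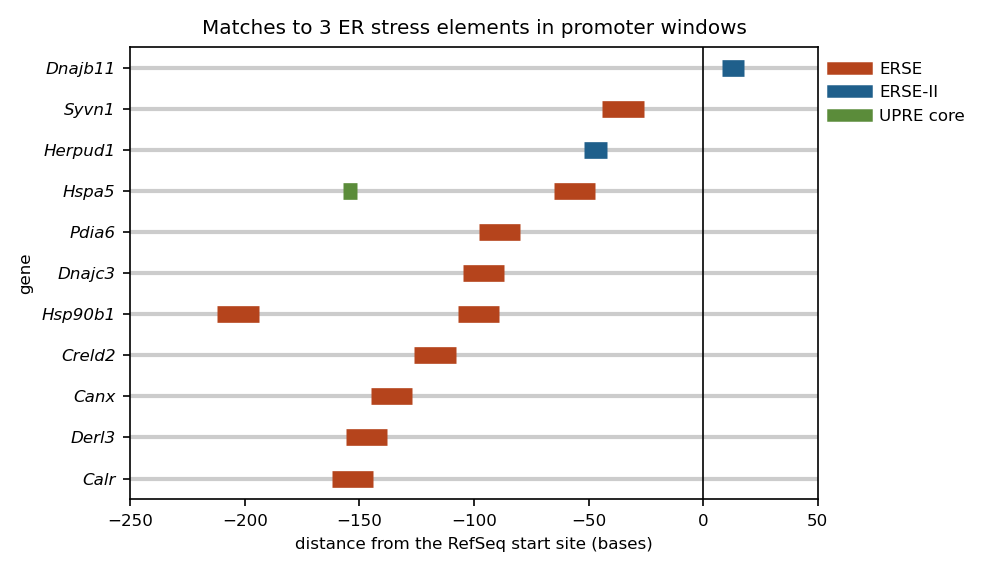
Position of each match to ERSE, ERSE-II and the UPRE core in the promoter windows of the 11 genes that hold an ERSE or ERSE-II, as the distance in bases from the RefSeq start site (vertical line). The ERSE matches lie between -212 and -26, and the Dnajb11 match is the 1 after the start.

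Between 6 h and 12 h after Con A, most of the machinery rose, while Xbp1 and Atf6 fell. Without MSC, 23 of the 32 genes rose and 2 fell, where 24.4% of all tested genes rose and 24.8% fell (edgeR quasi-likelihood test, Benjamini-Hochberg adjusted p under 0.05 over all tested genes). With MSC, 23 rose and 2 fell, where the background was 20.6% and 20.2%. The median log2 change was 1.04 without MSC and 0.85 with MSC, and the medians over all tested genes were 0.02 and 0.06. These comparisons share no libraries, but 1 fit to all 12 libraries gave the scaling and the estimate of spread for both, so their p-values are not independent. In all 3 libraries at 12 h, 22 genes lay above all 3 at 6 h and 2 lay below without MSC (background 27.4% and 27.3%), and 25 lay above and 2 below with MSC (30.6% and 28.0%). In both arms, 22 of the 32 genes rose (68.8%) against 14.8% of all tested genes, and the same 2 fell (6.25% against 15.5%). Scaling by total counts moved the median of all genes to 0.28 and 0.59, and that of the 32 genes to 1.29 and 1.38, with 24 and 27 rising and 1 falling in each.

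The 32 genes together took 0.511% to 0.819% of all counts in the 6 libraries at 6 h and 1.09% to 1.80% in the 6 at 12 h, with no overlap between the times. The 10 chaperones took 0.173% to 0.332% at 6 h and 0.448% to 0.763% at 12 h. ERAD factors took 0.0584% to 0.133% at 6 h and 0.139% to 0.256% at 12 h. The summed share of the 4 sensors, of which Xbp1 was by far the most abundant, lay between 0.0592% and 0.0659% at 6 h and between 0.0458% and 0.0572% at 12 h. Within it Xbp1 and Atf6 fell, Atf6b rose and Ern1 did not pass the test. Levels between genes were compared per kilobase of exon (GENCODE M21 lengths), as mean CPM (read counts relative to library size, scaled to counts per 1e6 with TMM factors) per kilobase over the 12 libraries. P4hb (395), Calr (385), Hsp90b1 (293) and Hspa5 (286) led this pooled order, and Atf6 (7.02), Edem3 (5.47) and Ern1 (4.58) closed it. The order differed by time. P4hb led at 6 h, at 275 CPM per kilobase without MSC and 296 with MSC, and Calr led at 12 h, at 564 and 539. At 6 h Xbp1 (176 and 182) stood above Hsp90b1 (168 and 166), and Derl3 (0.802 and 1.93) was the lowest of the 32.

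**Figure D2:**
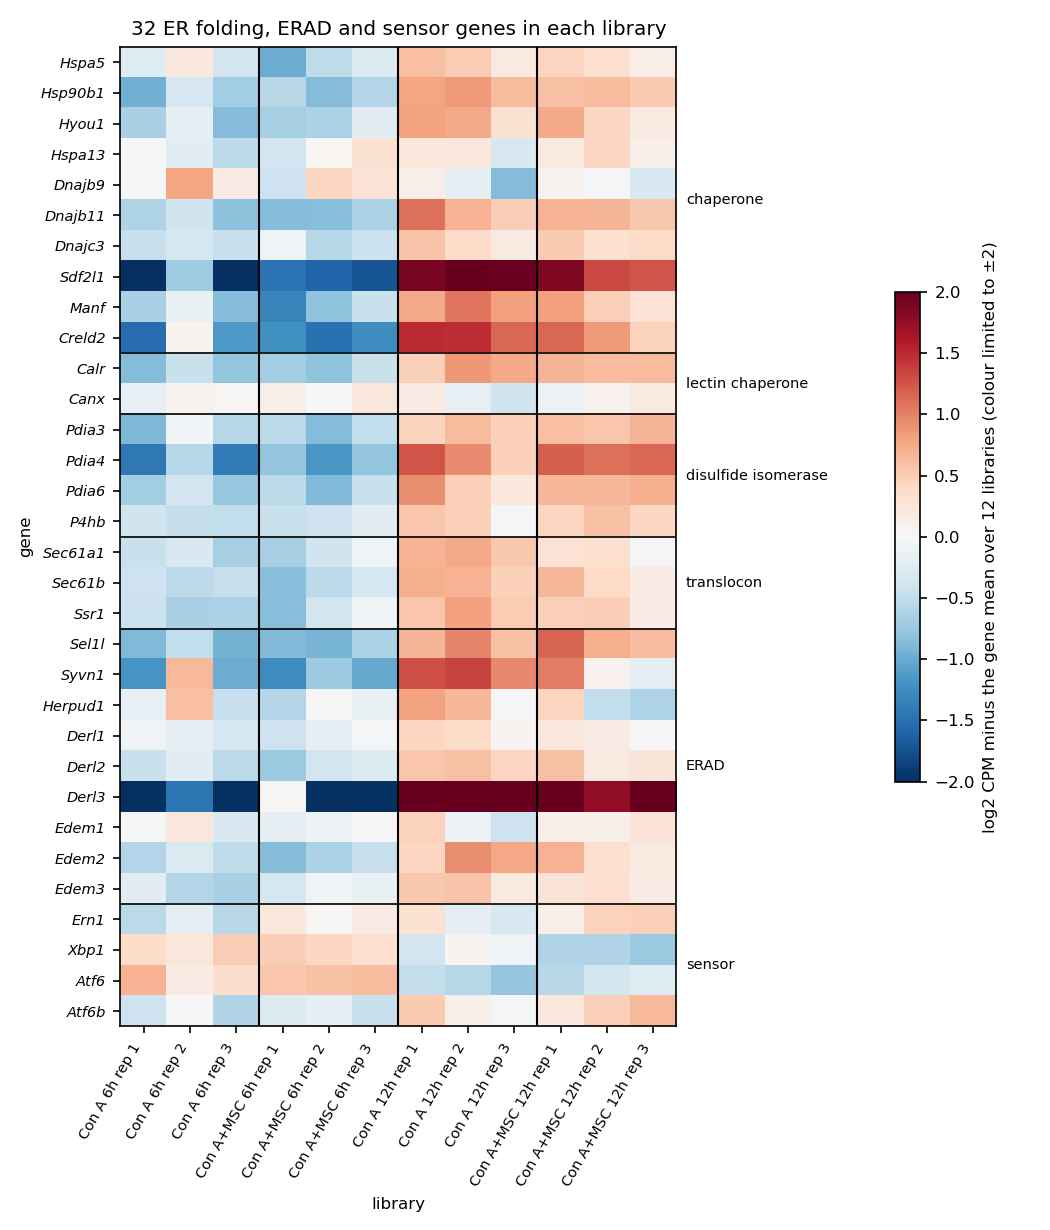
Log2 CPM of each of the 32 genes (rows, by role) in each of the 12 libraries (columns, by group) minus that gene's mean over the libraries, with colours limited to 2 log2 units either way. Most rows turn from blue in the 6 libraries at 6 h to red in the 6 at 12 h, and the rows of Xbp1 and Atf6 turn the other way.

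Libraries differed within groups. Replicate 2 of Con A 6h had the highest level of its group for 24 of the 32 genes, and replicate 3 of Con A 12h had the lowest of its group for 26. Total counts were 29688137 to 36131512 per library, and TMM factors ran from 0.8147 to 1.291. The mitochondrially encoded share of counts was 17.3% and 24.9% in replicates 2 and 3 of Con A 12h and 5.59% to 12.1% in the other 10 libraries. Without those 2 libraries, Con A 12h is a single library, assumed to vary like the other groups. In that fit 23 genes rose and 2 fell without MSC, with Syvn1 losing its call and Ern1 gaining one.

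The tissue around these genes changed over the same interval. Summed CPM of 10 hepatocyte markers was 98809.6 to 128004 at 6 h and 45886 to 65592 at 12 h, and 7 of the 10 fell in each arm. Summed CPM of 10 neutrophil markers was 59.6 to 229.8 at 6 h and 30.0 to 49.5 at 12 h, and 9 of the 10 fell without MSC and 8 with MSC. Without MSC, 7 of 10 endothelial markers fell and 1 rose, 6 of 10 stellate cell markers fell and 1 rose, and 6 of 10 Kupffer cell markers fell and 0 rose. With MSC, 2 endothelial markers rose and 2 fell, 4 stellate cell markers rose and 2 fell, and 2 Kupffer cell markers fell and 0 rose. In bulk RNA, fewer cells of a type and less RNA per cell cannot be told apart, and the part of these shifts in the results on ER genes was not tested.

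Among the chaperones, 7 of 10 rose without MSC and 8 of 10 with MSC, with median log2 changes of 1.28 and 1.10. Sdf2l1, a BiP co-factor that keeps clients from aggregating, had the largest change of the 10. Its levels in replicates 1 to 3 were 13.0, 34.6 and 8.64 CPM in Con A 6h and 209.5, 225 and 221 CPM in Con A 12h. With MSC they were 20.2, 18.6 and 17.0 CPM at 6 h and 207, 140.3 and 136 CPM at 12 h. All 6 libraries at 12 h thus lay far above all 6 at 6 h. The log2 change was 3.54 ± 0.41 (SE, edgeR adjusted p = 4.3e-05), or 11.6-fold, without MSC and 3.12 ± 0.41 (adjusted p = 0.000105), or 8.66-fold, with MSC.

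GRP94 (Hsp90b1), the ER form of Hsp90, was at 542, 836 and 652 CPM in Con A 6h and at 1830.1, 1905 and 1646 CPM in Con A 12h. With MSC it was at 717, 579 and 707 CPM at 6 h and 1581, 1647 and 1520.1 CPM at 12 h. The times did not overlap in either arm. Its log2 change was 1.41 ± 0.19 (edgeR adjusted p = 0.000114) without MSC and 1.25 ± 0.19 (adjusted p = 0.000312) with MSC. Up to 15.7% of its exon bases are shared with other annotated genes, and whether reads were counted by strand is not stated.

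Dnajb11 (ERdj3), a J-domain partner that hands clients to BiP, was at 81.5, 95.2 and 70.9 CPM in Con A 6h and at 269.8, 202 and 176 CPM in Con A 12h. In the MSC arm it was at 68.9, 69.8 and 81.1 CPM at 6 h and 203, 200.1 and 183 CPM at 12 h. Replicates lay close together except for the higher replicate 1 of Con A 12h. The log2 change was 1.39 ± 0.18 (edgeR adjusted p = 8.28e-05) without MSC and 1.42 ± 0.18 (adjusted p = 8.77e-05) with MSC.

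Creld2, an ER protein with disulfide isomerase activity, was at 54.9, 165 and 71.4 CPM in Con A 6h and at 444, 439 and 351 CPM in Con A 12h. Libraries with MSC were at 67.4, 56.0 and 67.0 CPM at 6 h and at 349.9, 284 and 218 CPM at 12 h. The high value in Con A 6h was again in replicate 2. The log2 change was 2.08 ± 0.34 (edgeR adjusted p = 0.000418) without MSC and 2.16 ± 0.34 (adjusted p = 0.000423) with MSC.

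BiP itself moved less. Hspa5 was at 979.6, 1335 and 888 CPM in Con A 6h and 1752, 1637 and 1302 CPM in Con A 12h, which overlap. The MSC arm stood at 578, 806 and 952 CPM at 6 h and 1558, 1442 and 1269 CPM at 12 h, which do not. The log2 change was 0.55 ± 0.23 (edgeR adjusted p = 0.0614) without MSC, which did not pass, and 0.87 ± 0.23 (adjusted p = 0.00937) with MSC. The difference between these changes was 0.32 ± 0.32 (adjusted p = 0.663). Without replicate 2 of Con A 6h, Hspa5 passed in the Con A libraries, as it did in 6 of the other alternative fits.

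Of the remaining chaperones, Manf, a secreted ER stress protein that binds BiP, rose by 1.41 and 1.36 without and with MSC. Hyou1, the large Hsp70 that exchanges nucleotide on BiP, rose by 1.17 and 0.96, and Dnajc3 (p58IPK), a BiP co-chaperone, rose by 0.80 and 0.76. Hspa13, an Hsp70-like protein, had log2 changes of 0.30 and 0.23 that did not pass. Dnajb9 (ERdj4), which restrains Ire1 through BiP, was the 1 chaperone with negative values in both arms, -0.62 ± 0.29 (edgeR adjusted p = 0.087) and -0.22 ± 0.28 (adjusted p = 0.566), and neither passed. Its fall without MSC passed in 1 of 20 alternative fits, the fit without replicate 1 of Con A 12h (-0.82, edgeR adjusted p = 0.045).

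The lectin chaperones, which hold glycoproteins through their sugar chains, differed from each other. Calr was at 546, 732 and 581 CPM in Con A 6h and 1386, 1807 and 1679 CPM in Con A 12h. In mice given MSC it was at 613, 570.3 and 734 CPM at 6 h and 1591, 1526 and 1539.8 CPM at 12 h. It rose by 1.39 ± 0.18 (edgeR adjusted p = 0.000101) and 1.28 ± 0.18 (adjusted p = 0.000207), with no overlap between times. Canx, its membrane-bound relative, was at 226, 267 and 260.3 CPM in Con A 6h and 284, 227 and 193 CPM in Con A 12h. Levels with MSC were 276, 253 and 299 CPM at 6 h and 234, 271 and 289 CPM at 12 h. Times overlapped in both arms, and the log2 changes were -0.10 ± 0.17 (adjusted p = 0.653) and -0.06 ± 0.17 (adjusted p = 0.801). Both genes have an ERSE in the promoter window.

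All 4 disulfide isomerases, which form and reshuffle disulfide bonds, rose in both arms, with median log2 changes of 1.08 and 1.26. Pdia4 was at 73.2, 134 and 74.9 CPM in Con A 6h and 477, 384 and 276 CPM in Con A 12h. With MSC it was at 115, 88.7 and 115 CPM at 6 h and 453, 428 and 442 CPM at 12 h. All 3 libraries at 12 h lay above all 3 at 6 h in each arm, and it rose 4.04-fold and 4.15-fold, by 2.01 ± 0.26 (edgeR adjusted p = 8.3e-05) and 2.05 ± 0.26 (adjusted p = 8.74e-05) on the log2 scale. Pdia6 was at 176, 217 and 169 CPM in Con A 6h and 544, 397 and 329 CPM in Con A 12h, and with MSC at 199, 155 and 208 CPM and then 449.8, 453 and 471 CPM. Its replicates at 12 h were spread widely without MSC and lay close together with MSC. It rose by 1.18 ± 0.20 (adjusted p = 0.000519) and 1.29 ± 0.20 (adjusted p = 0.000365).

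Pdia3, the isomerase that works with calnexin and calreticulin, was at 314, 560.5 and 392 CPM in Con A 6h and 795, 903 and 813 CPM in Con A 12h. In the MSC arm it was at 402, 318 and 415 CPM at 6 h and 886, 859 and 929 CPM at 12 h. The highest value at 6 h, in replicate 2, stayed below all values at 12 h. It rose by 0.99 ± 0.21 (edgeR adjusted p = 0.00202) and 1.24 ± 0.21 (adjusted p = 0.000622). P4hb, the classical disulfide isomerase, rose by 0.81 and 0.83.

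The 3 translocon genes rose in both arms, with medians of 1.13 and 0.78. Sec61a1, the channel subunit, was at 162, 178 and 140.5 CPM in Con A 6h and 360.3, 373 and 322 CPM in Con A 12h. Libraries with MSC were at 139, 167 and 208 CPM at 6 h and 271, 276 and 217 CPM at 12 h. The gap between the times was narrow with MSC, 208 against 217 CPM. It rose by 1.13 ± 0.18 (edgeR adjusted p = 0.000326) without MSC and by 0.57 ± 0.18 (adjusted p = 0.0227) with MSC. The second call was lost without replicate 1 or 2 of Con A+MSC 6h and without replicate 1 or 2 of Con A+MSC 12h, with adjusted p up to 0.0887.

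Sec61b, the small channel subunit, was at 53.2, 49.8 and 51.8 CPM in Con A 6h and 117, 115 and 99.2 CPM in Con A 12h. The MSC arm stood at 39.9, 49.1 and 56.0 CPM and then 112, 93.6 and 80.2 CPM. It rose by 1.10 ± 0.17 (edgeR adjusted p = 0.000234) and 0.98 ± 0.17 (adjusted p = 0.000626). All libraries of Sec61b at 12 h stood clear of those at 6 h. Ssr1, part of the translocon-associated complex, was at 107, 92.0 and 93.0 CPM in Con A 6h and 214, 256 and 205 CPM in Con A 12h. In mice given MSC it was at 80.6, 112 and 138 CPM and then 201, 205 and 161 CPM. It rose by 1.21 ± 0.20 (adjusted p = 0.000376) and 0.78 ± 0.19 (adjusted p = 0.00713), and its times did not overlap in either arm.

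Of the 9 ERAD genes, 7 rose without MSC and 6 with MSC, with medians of 0.92 and 0.80. Sel1l, the scaffold of the Hrd1 complex, was at 72.6, 94.5 and 68.9 CPM in Con A 6h and 213, 263 and 201 CPM in Con A 12h. Levels with MSC were 72.5, 70.2 and 85.7 CPM at 6 h and 299, 221 and 204 CPM at 12 h. Every library at 12 h was above 200 CPM and every library at 6 h below 100 CPM. It rose by 1.52 ± 0.19 (edgeR adjusted p = 7.59e-05) and 1.66 ± 0.19 (adjusted p = 5.17e-05).

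The ligase Syvn1 was far more variable. It was at 107, 379 and 122 CPM in Con A 6h and 597, 619.6 and 475 CPM in Con A 12h. With MSC it was at 102, 146 and 119.8 CPM at 6 h and 495, 259 and 213 CPM at 12 h. A single library stood high in Con A 6h (replicate 2) and in Con A+MSC 12h (replicate 1). It rose by 1.48 ± 0.44 (edgeR adjusted p = 0.0149) and 1.39 ± 0.44 (adjusted p = 0.0237). The first call was lost without replicate 3 of Con A 6h and without both Con A 12h libraries of high mitochondrial share (1.58, adjusted p = 0.0718). The second was lost without replicate 1 or 3 of Con A+MSC 6h and without replicate 1 of Con A+MSC 12h, with adjusted p up to 0.111.

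Derl3, a Derlin that is low in many tissues, had the largest change of the 32 genes. It was at 0.215, 3.43 and 1.14 CPM in Con A 6h and 68.9, 86.5 and 68.7 CPM in Con A 12h. In the MSC arm it was at 9.78, 1.13 and 0.607 CPM at 6 h and 133, 33.1 and 40.5 CPM at 12 h. The lowest level was 6 counts in 1 library, and the highest of the 6 h values lay below the lowest at 12 h. It rose by 5.53 ± 1.05 (edgeR adjusted p = 0.00109) and 4.18 ± 0.98 (adjusted p = 0.00484) on the log2 scale, with 95% intervals of 3.24 to 7.81 and 2.06 to 6.29. Derl3 is also abundant in plasma cells. Of 13 listed plasma cell and B cell markers, only 8 were entries of the count tables, and the sum leaves the rest out. The 8 summed to 189 to 264 CPM at 6 h and 57.0 to 158 CPM at 12 h. Most of that sum was Sdc1, a surface proteoglycan that hepatocytes also make. It fell by 0.96 on the log2 scale without MSC (edgeR adjusted p = 0.00779) and by 1.31 with MSC (adjusted p = 0.00165). The other 6 markers tested did not pass without MSC, and with MSC the B cell gene Cd79a (1.44, adjusted p = 0.0271) was among those that rose. Mzb1 and Tnfrsf17 were at 0 in all 6 libraries without MSC and reached 0.504 and 0.0904 CPM with MSC, and Jchain was between 0.407 and 4.10 CPM in the 12 libraries. The part of these cells in the Derl3 result was not tested.

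Edem2, a mannosidase-like protein that marks glycoproteins for disposal, was at 46.5, 57.3 and 48.9 CPM in Con A 6h and 94.4, 133 and 119 CPM in Con A 12h. Libraries with MSC were at 38.4, 44.9 and 50.9 CPM and then 113, 88.0 and 78.8 CPM. It rose by 1.18 ± 0.18 (edgeR adjusted p = 0.000294) and 1.06 ± 0.18 (adjusted p = 0.000765). Edem2 levels at 12 h were above those at 6 h in every library of each arm. Its relative Edem3 was at 29.0, 22.4 and 21.4 CPM in Con A 6h and 48.8, 50.2 and 38.1 CPM in Con A 12h. The MSC arm stood at 26.4, 31.8 and 30.9 CPM and then 40.4, 42.4 and 37.5 CPM. Edem3 too was higher at 12 h in every library, with narrow gaps in the MSC arm. Edem3 rose by 0.91 ± 0.16 (adjusted p = 0.000665) and 0.43 ± 0.16 (adjusted p = 0.0465), and the second call was lost in 9 of 20 alternative fits, among them each fit without 1 of the 6 libraries with MSC. Edem1, the third of the family, had log2 changes of 0.04 and 0.26 that did not pass.

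Derl2 was at 44.6, 52.7 and 41.7 CPM in Con A 6h and 89.6, 91.5 and 82.2 CPM in Con A 12h. In mice given MSC it was at 36.4, 47.4 and 50.3 CPM and then 91.7, 69.4 and 72.1 CPM. Times were well apart in both arms, and it rose by 0.92 ± 0.17 (edgeR adjusted p = 0.000788) and 0.80 ± 0.17 (adjusted p = 0.00248). Derl1 rose by 0.50 ± 0.16 (adjusted p = 0.0195) without MSC, a call lost without replicate 3 of Con A 6h (highest adjusted p over the alternatives 0.0604). With MSC its log2 change was 0.33 ± 0.16 (adjusted p = 0.116). Herpud1, a membrane protein that organizes the Hrd1 complex, was at 276, 469 and 224 CPM in Con A 6h and 541, 493 and 306 CPM in Con A 12h. Levels with MSC were 206, 308 and 279 CPM and then 419, 219.6 and 202 CPM. These ranges overlap, and its log2 changes of 0.47 ± 0.34 (adjusted p = 0.27) and 0.08 ± 0.34 (adjusted p = 0.863) did not pass.

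**Figure D3:**
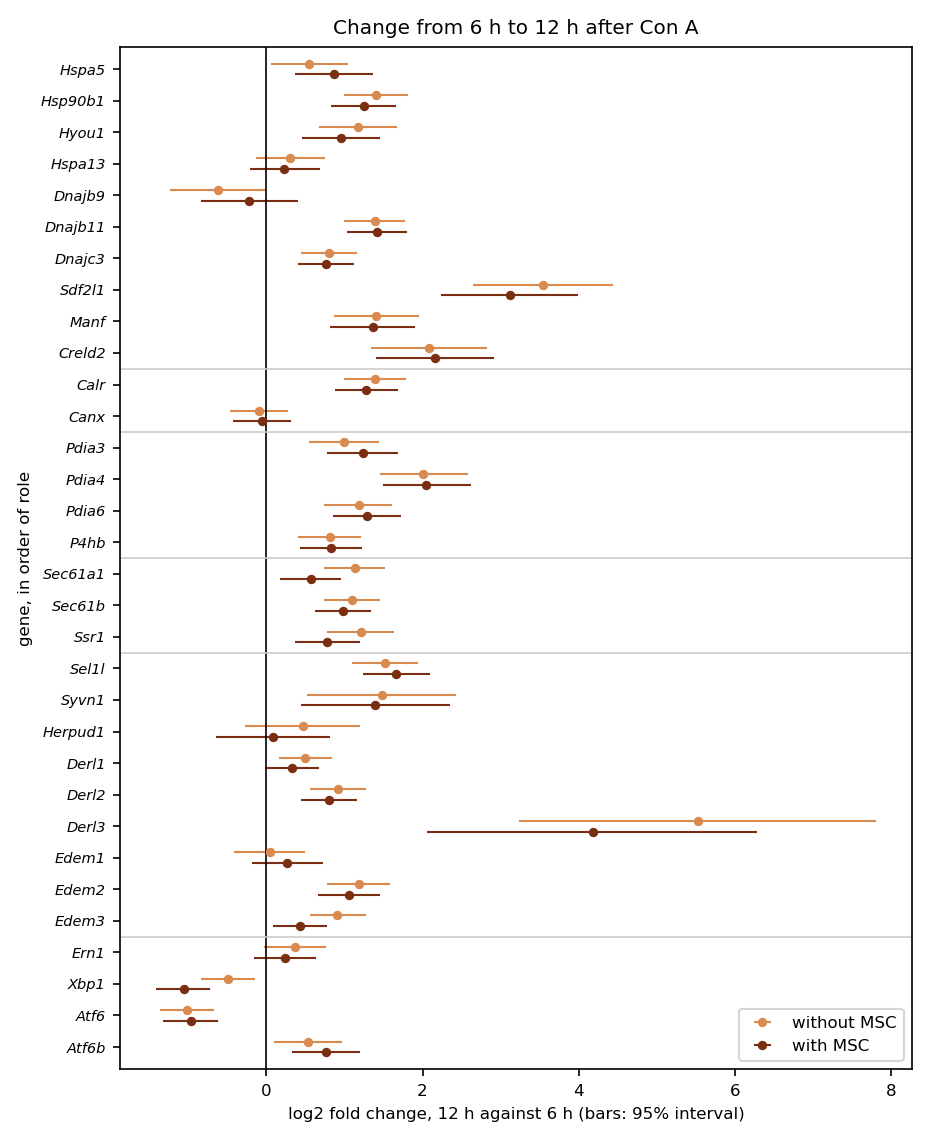
Log2 fold change from 6 h to 12 h after Con A for each gene, without MSC (light) and with MSC (dark), with bars for the 95% interval of the edgeR fit and grey lines between roles. Derl3 and Sdf2l1 lie farthest to the right, and Xbp1 and Atf6 lie left of 0 in both arms.

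The 4 sensors did not move together. Atf6, the membrane-bound factor that is cut in the Golgi, was at 98.1, 67.3 and 77.8 CPM in Con A 6h and 43.4, 41.0 and 35.6 CPM in Con A 12h. With MSC it was at 89.2, 90.7 and 94.2 CPM at 6 h and 41.5, 47.3 and 51.2 CPM at 12 h. It was lower in every library at 12 h than in any at 6 h. It fell to 0.494 of its level without MSC (log2 -1.02 ± 0.16, edgeR adjusted p = 0.000303) and to 0.511 with MSC (-0.97 ± 0.16, adjusted p = 0.000521). Scaled by total counts, the call with MSC was lost (-0.44, adjusted p = 0.0868).

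Xbp1 was at 574, 520.0 and 622 CPM in Con A 6h and 338, 462 and 419.7 CPM in Con A 12h. In the MSC arm it was at 625, 589.7 and 556 CPM at 6 h and 292, 291 and 266 CPM at 12 h. The times did not overlap, and the lowest 3 values were those of Con A+MSC 12h. Xbp1 fell by 0.49 ± 0.16 on the log2 scale (edgeR adjusted p = 0.0214) without MSC and by 1.06 ± 0.16 (adjusted p = 0.000285) with MSC. The first call was lost in 6 of 20 alternative fits, among them scaling by total counts (-0.25, adjusted p = 0.205) and the fits without replicate 1 or 3 of Con A 6h or of Con A 12h. Gene counts do not separate spliced from unspliced Xbp1, so they do not report Ire1 activity.

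Ern1, which encodes Ire1, was at 25.0, 32.3 and 24.9 CPM in Con A 6h and 44.8, 32 and 29.1 CPM in Con A 12h. Libraries with MSC were at 42.1, 36.9 and 41.0 CPM and then 40.0, 50.2 and 51.0 CPM. Times overlapped, and the log2 changes of 0.37 ± 0.18 (edgeR adjusted p = 0.115) and 0.24 ± 0.18 (adjusted p = 0.321) did not pass. Without MSC it passed in 4 of 20 alternative fits: with the mitochondrial share as a covariate (0.56, adjusted p = 0.011), without replicate 2 of Con A 6h (0.51, adjusted p = 0.0411), without replicate 3 of Con A 12h (0.51, adjusted p = 0.0475) and without both Con A 12h libraries of high mitochondrial share (0.73, adjusted p = 0.0273). With MSC it passed only with total-count scaling (0.77, adjusted p = 0.0264), which moved the median of all tested genes by 0.54. Atf6b, the relative of Atf6, was at 14.2, 19.1 and 12.5 CPM in Con A 6h and 27.3, 20.5 and 18.5 CPM in Con A 12h. The MSC arm stood at 15.7, 16.7 and 13.9 CPM and then 22.1, 26.6 and 30.0 CPM. It rose by 0.53 ± 0.20 (adjusted p = 0.0427) and 0.76 ± 0.20 (adjusted p = 0.00946), while Atf6 fell, and its times overlapped without MSC. The first of these calls was lost in 5 of 20 alternative fits, among them those without replicate 1 or 3 of Con A 6h and without replicate 1 of Con A 12h.

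The genes with an element and those without were both mostly higher at 12 h. Of the 11 genes with an ERSE or ERSE-II, 8 rose without MSC and 9 with MSC, with medians of 1.39 and 1.28. Of the 15 with a window and no exact match to either element, 11 rose and 1 fell in each arm, with medians of 0.92 and 0.80. Sdf2l1 and Pdia4 are in this second set. Outside the list, 38 other genes hold an ERSE or ERSE-II, and 16 of them matched a tested entry by symbol. Of the 16, 4 rose and 4 fell without MSC, and 7 rose and 4 fell with MSC, with medians of 0.24 and 0.26. Over all tested genes, 24.4% rose and 24.8% fell without MSC, and 20.6% rose and 20.2% fell with MSC. Ero1b holds an ERSE but stands in the count tables as Ero1lb, so these counts leave it out. Its mean was 36.4 CPM in Con A 6h and 78.5 CPM in Con A 12h, and 45.9 and 94.0 CPM with MSC.

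MSC changed none of the 32 genes by the test at either time. At 6 h, 0 of 32 passed, where 0.0981% of all tested genes did (14 genes). At 12 h, 0 of 32 passed, where 4.08% did (582 genes). The edgeR fit gave 1 gene at an unadjusted p under 0.05 at 6 h (background 10.9%) and 3 at 12 h (background 22.0%). DESeq2 called 0 and 1 of the 32, the 1 being Xbp1. The median log2 difference was 0.00 at 6 h, with a range of -0.72 (Syvn1) to 1.23 (Derl3), and -0.14 at 12 h, with a range of -0.81 (Syvn1) to 0.41 (Ern1). Scaled by total counts, the median at 12 h was 0.10, beside 0.26 for all tested genes. The 95% interval of the edgeR fit lay within 1 log2 unit of 0 for 28 of the 32 genes at 6 h and for 27 at 12 h. The wider ones at both times were Creld2, Syvn1, Herpud1 and Derl3, joined at 12 h by Sdf2l1, so a 2-fold difference in these genes lay within the error.

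**Figure D4:**
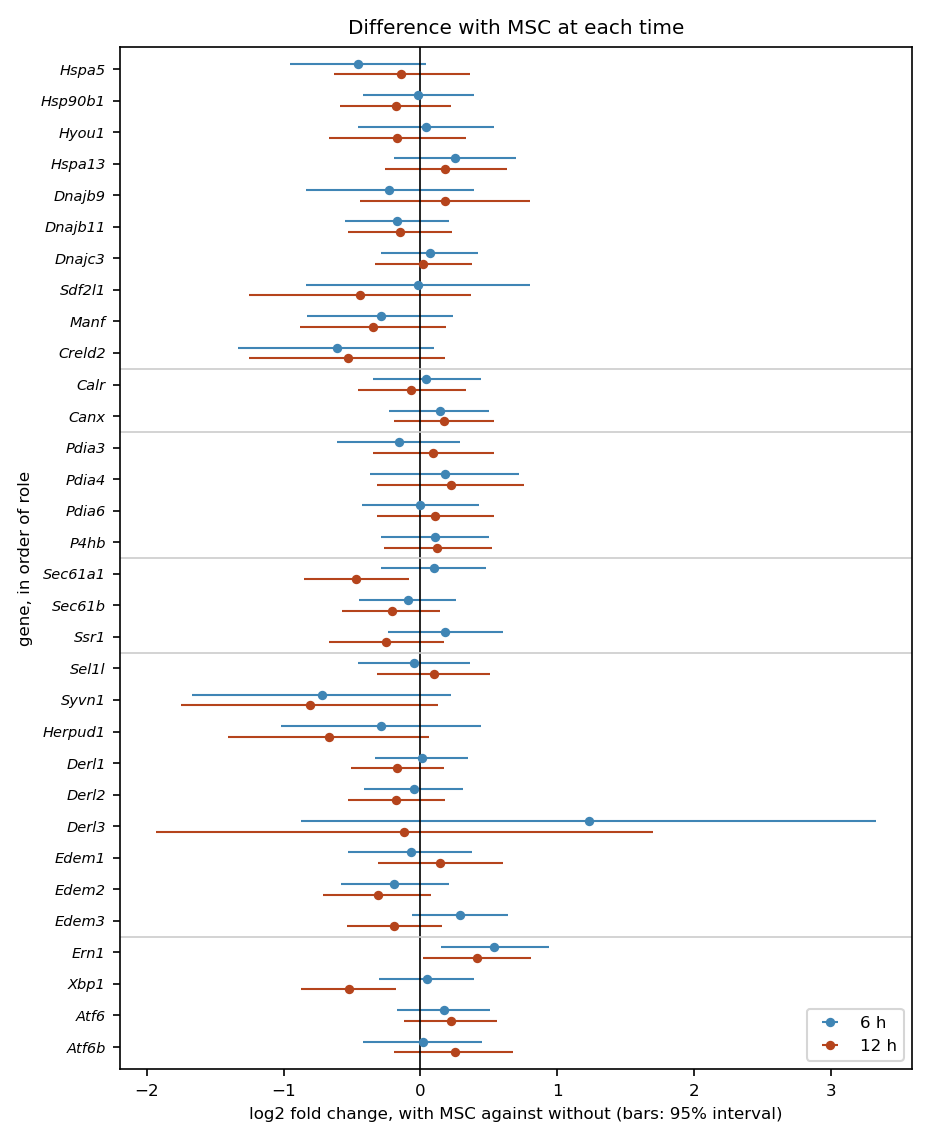
Log2 fold difference with MSC against without, for each gene at 6 h (blue) and 12 h (red), with bars for the 95% interval of the edgeR fit and grey lines between roles. Intervals cross 0 for all genes except Ern1 at both times and Xbp1 and Sec61a1 at 12 h, none of which passed after adjustment.

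The nearest to a call at 6 h was Ern1, whose 3 libraries with MSC (42.1, 36.9 and 41.0 CPM) lay above the 3 without (25.0, 32.3 and 24.9 CPM). The log2 difference was 0.54 ± 0.18 (edgeR unadjusted p = 0.0112, adjusted p = 0.277), with a 95% interval of 0.15 to 0.94. Its adjusted p ran from 0.0932 to 0.634 over the alternatives. It was the 1 gene of the 32 with groups that did not overlap at 6 h, where 8.22% of tested genes were higher and 8.34% lower in this way. The next 3 by p, whose values in each library are given above, overlapped. Their log2 differences were -0.46 ± 0.23 for Hspa5 (adjusted p = 0.502), -0.61 ± 0.33 for Creld2 (adjusted p = 0.549) and 0.29 ± 0.16 for Edem3 (adjusted p = 0.559).

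The nearest to a call at 12 h was Xbp1, at 292, 291 and 266 CPM with MSC and 338, 462 and 419.7 CPM without. All 3 libraries with MSC were lower, with a log2 difference of -0.52 ± 0.16 (edgeR unadjusted p = 0.00595, adjusted p = 0.0833), with an interval of -0.87 to -0.18. Xbp1 passed with DESeq2 (-0.53, adjusted p = 0.0105) and without replicate 1 of Con A 12h (-0.64, edgeR adjusted p = 0.0341). Sec61a1 was at 271, 276 and 217 CPM with MSC and 360.3, 373 and 322 CPM without. Its groups did not overlap either, with a log2 difference of -0.47 ± 0.18 (edgeR adjusted p = 0.151). Ern1 was at 0.41 ± 0.18 (adjusted p = 0.207) with overlapping groups, and passed only without replicate 1 of Con A 12h (0.62, adjusted p = 0.0496). Herpud1 was at -0.67 ± 0.34 (adjusted p = 0.266). With MSC at 12 h, 5 genes lay below all libraries without MSC (Xbp1, Sec61a1, Creld2, Ssr1 and Sdf2l1) and 0 lay above, where 13.1% of all tested genes were lower and 13.3% higher in this way.

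At 12 h, markers of some other cells differed with MSC. Of 10 markers each, 7 endothelial, 7 stellate cell and 4 Kupffer cell markers rose, where 327 of 14275 tested genes did. Of the neutrophil markers 0 of 10 passed, and 0 of 7 tested passed for T and NK cells and for plasma and B cells. Summed endothelial markers were 96.5 to 143 CPM with MSC and 31.0 to 46.5 CPM without. Hepatocyte markers overlapped, at 52106 to 65592 CPM with MSC and 45886 to 62467 CPM without, and 0 of 10 passed. The part of these shifts in the values of ER genes was not tested.

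No gene of the 32 passed the test of whether the MSC difference changed between 6 h and 12 h, where 0.126% of tested genes did (18 genes). The edgeR fit gave 2 genes at an unadjusted p under 0.05 (background 16.8%), and DESeq2 called 0. The smallest p was that of Xbp1, at -0.57 ± 0.22 (edgeR adjusted p = 0.228), followed by Sec61a1 at -0.56 ± 0.25 (adjusted p = 0.283).

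**Figure D5:**
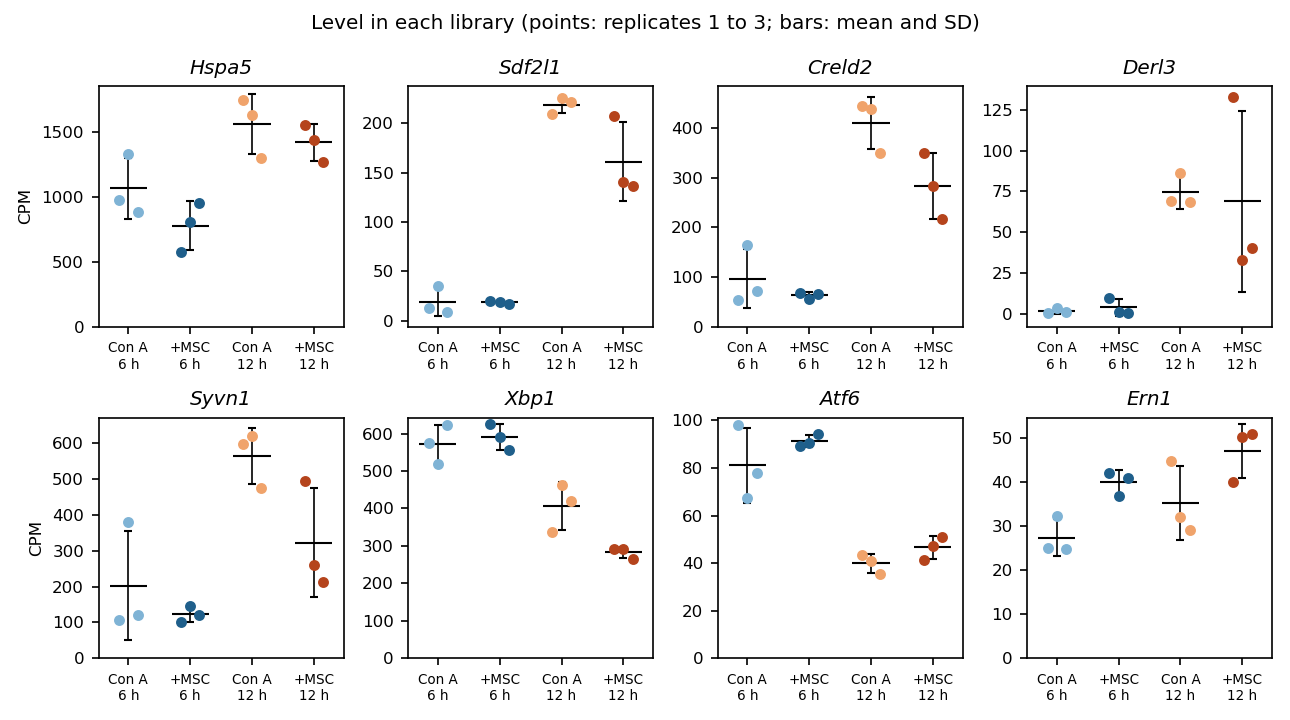
CPM of 8 of the genes in each library (points, replicates 1 to 3), with the group mean and SD (n = 3). Sdf2l1 and Derl3 are lower in all 6 libraries at 6 h (at most 34.6 and 9.78 CPM) than in any at 12 h, single libraries stand apart in Syvn1 and Derl3, and Xbp1 is lowest in Con A+MSC 12h.

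Other genes of the pathway, from lists of 85 genes of which 83 were tested, are given by role. Of 25 other ER folding factors, 17 rose and 1 fell without MSC (background 24.4% and 24.8%). With MSC, 15 rose and 1 fell (background 20.6% and 20.2%). The medians were 0.70 and 0.55. Erp29, an ER protein with a thioredoxin fold, rose by 1.92 ± 0.18 (edgeR adjusted p = 1.05e-05) and 1.51 ± 0.18 (adjusted p = 5.52e-05). Dnajc10, a disulfide reductase that works with BiP, rose by 1.65 and 1.21, and Ppib, an ER proline isomerase, rose by 1.17 and 1.27. The gene that fell was Ero1l, the oxidase that recharges disulfide isomerases, by 2.04 ± 0.20 (adjusted p = 1.22e-05) and 2.43 ± 0.20 (adjusted p = 4.25e-06) on the log2 scale.

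Of 22 tested translocon, signal peptidase and oligosaccharyltransferase genes, 14 rose without MSC (background 24.4%) and 12 with MSC (20.6%). In each arm 0 fell (background 24.8% and 20.2%), and the medians were 0.90 and 0.69. Rpn1, an oligosaccharyltransferase subunit, rose by 1.45 ± 0.15 (edgeR adjusted p = 2.18e-05) and 1.32 ± 0.15 (adjusted p = 4.82e-05). The signal peptidase genes Sec11a, Spcs3 and Sec11c rose by 1.22, 1.16 and 1.11 without MSC and by 0.89, 0.71 and 1.42 with MSC. Stt3b, a catalytic subunit of the oligosaccharyltransferase, rose by 0.70 and 0.86.

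Other ERAD factors were mixed. Of 20 tested, 7 rose and 4 fell without MSC (background 24.4% and 24.8%), and 3 rose and 2 fell with MSC (20.6% and 20.2%). The medians were -0.03 and -0.04. Fam8a1, a partner of Hrd1, rose by 1.16 and 0.49. The ligase gene Rnf5 rose by 1.17 without MSC and had a value of 0.25 with MSC that did not pass. Rnf139, another ER ligase, fell by 0.77 on the log2 scale without MSC and had a value of -0.11 with MSC. Selenos, which links Derlins to the extraction machinery, rose by 0.83 in each arm. Ube2j2, an ER ubiquitin-conjugating enzyme, was the 1 gene of the 83 tested in the 4 lists that passed in an MSC comparison. It was at 27.4, 25.5 and 24.6 CPM in Con A+MSC 12h and 34.5, 40.0 and 39.7 CPM in Con A 12h, with a log2 difference of -0.56 ± 0.13 (edgeR adjusted p = 0.035). These groups did not overlap. Over all tested genes, 4.08% passed in this comparison. The call of Ube2j2 was not followed over the alternative fits.

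Among 16 other sensors, proteases and partners, 1 rose and 5 fell without MSC (background 24.4% and 24.8%). With MSC, 2 rose and 6 fell (background 20.6% and 20.2%). The medians were -0.01 and -0.23. Ppp1r15a (Gadd34), which directs removal of phosphate from eIF2α and is a target of the PERK branch, was at 110.4, 158 and 120.4 CPM in Con A 6h and 13.1, 25.8 and 30.4 CPM in Con A 12h. In mice given MSC it was at 95.2, 101 and 93.6 CPM and then 13.6, 10.8 and 11.0 CPM. It fell by 2.49 ± 0.27 (edgeR adjusted p = 2.33e-05) and 3.03 ± 0.27 (adjusted p = 8.15e-06) on the log2 scale. The PERK gene Eif2ak3 fell by 0.50 and 0.81, and Creb3l2, a membrane-bound factor related to Atf6, fell by 0.60 and 1.03. Bax, a mitochondrial pore protein that also binds Ire1, rose by 1.24 and 0.87. At 12 h the values with MSC nearest to a call were those of Ppp1r15a (-0.97, adjusted p = 0.0554), Bax (-0.91, adjusted p = 0.0629) and Atf4 (-0.51, adjusted p = 0.0806), the PERK-branch transcription factor, and none passed.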

How the data were processed

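The authors deposited 4 tables of whole-number counts per gene, 1 for each group with 3 libraries, and no value had been normalized. Per the submitters' processing notes the tools were StringTie 2.1.2, HISAT2 2.0.4 and Bowtie2 2.2.5, with build GRCm39. The counter was not given in the sources used here, nor were its annotation and strand setting. The labels name liver tissue, and the series text hepatocyte RNA.

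Entries were filtered with filterByExpr by group, scaled by TMM and fitted with edgeR 4.0.16 (R 4.3.3): quasi-likelihood, 4 group means, 12 libraries, 8 residual degrees of freedom, two-sided, Benjamini-Hochberg over 14275 entries for each of 5 comparisons. An SE is the size of the log2 change over the square root of F. A count of 0 allows up to 3 counts, 0.0657 to 0.119 CPM, for counting error only. The procedure was tested on simulated data. Alternatives were total-count scaling, DESeq2 1.42.0, no filter, 2 groups only, a replicate block, the mitochondrial share as a covariate, each library left out and 2 settings added after the data were seen.

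The genes, lists and tests were chosen with earlier results of these data known. Values per library are given for the 3 genes of each role with the smallest adjusted p in a time comparison, the 4 with the smallest p in an MSC comparison and all sensors. Syvn1 and Derl3 were added after their values were seen. Of each pathway list up to 3 genes with the smallest adjusted p per comparison are named. The T and NK cell markers present in the count tables (8 of 10) summed to 3.12 to 10.8 CPM. Plasma and B cell markers (8 of 13) summed to 57.0 to 264 CPM. Replicates differed beyond sampling noise, and no pairing of samples by replicate number was seen. Protein sequences were not used here.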

Additional observations from a re-analysis of the deposited data

How the results depend on the processing

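With 1 library left out, 21 to 27 of the 32 genes passed between 6 h and 12 h without MSC, and 22 to 25 with MSC. Total-count scaling went beyond the second range, with 27 rising and 1 falling. None of the 32 reversed direction past the threshold in any alternative fit. For MSC at 12 h, 0 to 2 of the 32 passed with 1 library left out (both without replicate 1 of Con A 12h), and DESeq2 called 1. Counts over all genes moved more. For MSC at 6 h (14 genes) they were 31 with total counts, 307 with DESeq2, 50 without the filter, 2 with the 2 groups only, 64 with the mitochondrial covariate, and 1 to 236 with a library left out. For MSC at 12 h (582) they were 1477 with DESeq2, 135 with the 2 groups only, 114 with the covariate, 32 without both Con A 12h libraries of high mitochondrial share, and 66 to 1061 with a library left out. Without those libraries 4642 genes passed in time without MSC (7020, or 5688 to 7121 with 1 library left out). For the change of the MSC difference (18) they were 211 with total counts, 705 with DESeq2, 45 without the filter, 9 with the covariate, 11 without mitochondrially encoded genes, 7 without those libraries, and 3 to 131 with a library left out. The causes were not tested. Total-count scaling moved the median of all genes by 0.26 for MSC at 12 h (734 rose, 95 fell), 0.26 and 0.54 for time without and with MSC (4301 rose and 2353 fell, 5789 and 1227), and 0.28 for the change of the MSC difference (187 and 24).

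No pairing by replicate number was seen, with same-number correlations of -0.23 to 0.13 (median 0.00) against -0.14 to 0.20 for different numbers. The labels do not say what the numbers stand for. With the replicate block, 4 genes passed for MSC at 6 h and 313 at 12 h, and 0 of the 32 at either time. In time, 22 of the 32 rose and 2 fell with the block in each arm, and Atf6b without MSC and Edem3 with MSC lost their calls.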
